A study of Mus musculus with 12 samples.

Results

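Myb shRNA was compared with a scrambled control shRNA in mouse tracheal epithelial cells on day 3 at an air-liquid interface (ALI). The cells were primary, from the tracheas of male C57BL/6J mice, and were cultured on Transwell membranes, where exposure to air makes basal cells differentiate into ciliated and secretory cells. The shRNA of both groups was carried by lentivirus. The comparison used 3 scrambled and 3 Myb shRNA arrays, 6 of the 12 arrays in the series, and the other 6 hold the same shRNAs at day 9. Replicates are called biological in the design, which does not say whether they came from separate animals, and the labels give neither the age of the mice, nor the shRNA sequences, nor the share of cells that were transduced.

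Total RNA was measured on Illumina bead arrays. A gene was included if at least 3 of the 6 day 3 arrays detected it (detection p-value below 0.01), which kept 8782 of the 20289 named genes on the array. Levels are log2 normalised intensities, and differences are Myb shRNA minus scrambled on the same log2 scale with their standard errors (SE), so that 1 is a doubling. Tests are from limma, with the spread estimated from all 12 arrays of the series. P-values are adjusted over all 8782 genes (Benjamini-Hochberg), and a gene is called higher or lower when its adjusted p is under 0.05. By this rule 2111 genes differed, of which 1085 were higher with Myb shRNA (12.4% of those tested) and 1026 were lower (11.7%), and the median difference of all genes was 0.01. The 3 values of each group did not overlap for 3256 of the 8782 genes, so such a separation is common here. The number higher was 676 without scrambled replicate 1, 712 without Myb shRNA replicate 1 and 711 without Myb shRNA replicate 3. With only the 6 day 3 arrays in the fit 766 were higher and 750 lower, and 1480 of the 2111 calls held. The gene lists used below were chosen with earlier results of these data known, and are described by their counts against these percentages. A list gene seen only on the arrays of the group where it is high had to differ to enter at all, so for lists that hold such genes counts over the members detected on all 6 arrays are given as well. Over all genes, 102 of the 108 detected only on scrambled arrays were lower, and 58 of the 80 detected only on Myb shRNA arrays were higher. Of the 8594 genes detected on at least 1 array of each group, 1027 were higher (12%) and 924 lower (10.8%).

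Most markers of airway epithelium were present. The keratins Krt5, Krt8, Krt14 and Krt18, the epithelial cadherin Cdh1 and the basal cell factor Trp63 were detected on all 6 arrays, while the epithelial surface gene Epcam was detected on none. Detected probes numbered 13247 to 15100 per array. Arrays numbered 3 stood apart from the others in both groups: the first principal component (64.6% of the variance) separated the shRNAs and the second (24.2%) separated arrays numbered 3. Same-numbered arrays of the 2 groups deviated together, most of all those numbered 3 (correlations of 0.172, 0.288 and 0.542 for numbers 1 to 3). Scrambled 1 with Myb shRNA 2 gave 0.501, so pairing by number is uncertain for numbers 1 and 2. Values from a fit blocked on replicate number are given for some results, and they hold only if the numbers mark pairs. Where none is given, the block may still have changed a count. Leaving out both arrays numbered 3, 1678 of the 2111 calls held. Of the 2111 calls, 1190 held whichever single day 3 array was left out.

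Multiciliated airway cells make many centrioles in a short burst, dock them at the apical membrane as basal bodies and grow a motile cilium from each. The programme starts when Notch signalling is low: Gmnc and Mcidas, coactivators that work with E2F factors, turn on the genes of centriole amplification, and the forkhead factor Foxj1 with RFX factors turns on the genes of the motile axoneme. Myb, a DNA-binding factor first known from blood progenitors, is made transiently in airway cells that leave the basal state, before Foxj1 appears.

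The knockdown itself could not be read from these arrays. None of the 4 Myb probes passed the detection filter, and a single detection (scrambled replicate 3) was made among their 24 values. That probe read 4.40, 4.38 and 6.56 on the scrambled arrays and 4.32, 4.25 and 4.30 on the Myb shRNA arrays (adjusted p = 0.202 over all probes). Another read 5.42, 5.22 and 5.31 against 4.95, 4.74 and 5.00, all without detection (adjusted p = 0.143). Of the related factors, Mybl1 was detected on no day 3 array, and the 1 kept probe of Mybl2, a cell cycle factor, differed by 0.26 ± 0.18 (SE; adjusted p = 0.547 over all probes).

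The sequences before gene starts were read for 4 short motifs. The windows hold the 250 bases before each annotated start (RefSeq, GRCm38.p6) for the 5604 tested genes with exactly 1 window, and matches were counted on both strands. The letters searched were AACGG, the core bound by MYB proteins, GTTGCC, which is a piece of the site bound by RFX factors, TAAACA for forkhead factors and TTCCCGC for E2F factors. Among all windows 21% held AACGG, against 14.5% of the 656 windows of genes higher with Myb shRNA, 23.4% of the 676 windows of genes lower and 22.2% of the 72 windows of genes lower by more than 2. GTTGCC stood in 10.4% of all windows, 8.99% of the higher, 14.9% of the lower and 30.6% of those lower by more than 2. TAAACA stood in 7.21%, 6.55%, 7.84% and 15.3% of the same groups, and TTCCCGC in 7.26%, 7.77%, 6.51% and 8.33%. The windows also differed in base composition, with a median GC content of 60.4% in all, 63.6% in the higher, 58.4% in the lower and 55.4% in those lower by more than 2, and its part in the shares was not tested. The windows of 6 genes follow, namely 3 regulators and 3 axoneme genes, chosen after the values were seen. They come from a longer set of genes, the rest of which are not printed. Of that rest only Ccdc78 held a match to any of the 4 motifs (GTTGCC), and the others held none or were not read. All 6 hold a match to AACGG or GTTGCC, so they do not show how common a match is. Each is written 5′ to 3′ on the gene's own strand and ends at the base before the start, with matches to AACGG or GTTGCC (or their reverse complements CCGTT and GGCAAC) in capitals.
Foxn4 (chr5:114273762-114274011, minus strand): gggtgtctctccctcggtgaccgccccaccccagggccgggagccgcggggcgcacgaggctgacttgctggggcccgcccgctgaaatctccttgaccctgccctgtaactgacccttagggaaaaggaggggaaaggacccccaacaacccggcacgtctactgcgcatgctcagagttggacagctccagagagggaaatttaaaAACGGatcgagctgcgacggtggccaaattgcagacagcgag
Mcidas (chr13:112993618-112993867, plus strand): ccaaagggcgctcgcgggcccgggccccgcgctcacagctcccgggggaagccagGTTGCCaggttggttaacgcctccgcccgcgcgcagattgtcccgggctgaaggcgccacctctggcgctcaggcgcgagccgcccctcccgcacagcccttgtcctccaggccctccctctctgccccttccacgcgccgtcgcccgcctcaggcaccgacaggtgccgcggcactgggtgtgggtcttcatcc
Ccno (chr13:112987552-112987801, plus strand): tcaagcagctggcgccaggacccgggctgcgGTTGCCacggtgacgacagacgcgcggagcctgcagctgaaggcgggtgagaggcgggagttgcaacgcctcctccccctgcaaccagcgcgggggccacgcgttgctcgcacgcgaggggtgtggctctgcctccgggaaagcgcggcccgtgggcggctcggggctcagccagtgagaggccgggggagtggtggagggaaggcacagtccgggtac
Lrrc23 (chr6:124779728-124779977, minus strand): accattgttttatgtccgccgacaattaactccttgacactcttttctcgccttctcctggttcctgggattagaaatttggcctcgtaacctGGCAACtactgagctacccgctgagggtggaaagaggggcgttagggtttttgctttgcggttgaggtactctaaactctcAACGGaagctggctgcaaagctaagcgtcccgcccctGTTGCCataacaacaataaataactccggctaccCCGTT
Cfap161 (chr7:83794840-83795089, minus strand): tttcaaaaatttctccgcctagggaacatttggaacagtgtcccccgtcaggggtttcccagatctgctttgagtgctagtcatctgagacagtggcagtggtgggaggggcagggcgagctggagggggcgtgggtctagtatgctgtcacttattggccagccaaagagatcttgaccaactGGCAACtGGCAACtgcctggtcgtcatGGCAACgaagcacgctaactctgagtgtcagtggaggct
Dynlrb2 (chr8:116504765-116505014, plus strand): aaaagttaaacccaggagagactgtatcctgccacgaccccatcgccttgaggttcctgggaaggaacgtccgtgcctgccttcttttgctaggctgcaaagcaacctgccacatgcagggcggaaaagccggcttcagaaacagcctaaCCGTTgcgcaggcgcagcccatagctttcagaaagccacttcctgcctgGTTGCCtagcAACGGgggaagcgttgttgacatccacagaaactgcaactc
Foxn4 held 1 AACGG, 38 to 42 bases before the start, and no GTTGCC. Mcidas and Ccno, which lie next to each other on chromosome 13, held 1 GTTGCC each, 190 to 195 and 214 to 219 bases before their starts. Cfap161 held 3 GTTGCC matches, all on the opposite strand and all within 66 bases of the start. Lrrc23 and Dynlrb2 held both motifs. A match says that these letters are present and says nothing of binding.

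Genes that set up multiciliation fell, while the E2F and FOXA factors that many cell types use did not pass the test. Of 21 regulators with a probe 16 could be tested, and 8 were lower and 0 higher, with a median of -0.56. Of the 13 regulators detected on all 6 arrays 5 were lower. Gmnc, Trp73, Rfx3 and Cdc20b, further genes of the programme, were detected on none of the 6 arrays, and the fifth untested gene, Rfx4, was detected on 1.

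Foxn4, a forkhead factor known to work with Multicilin in frog skin, fell most. Its levels were 7.60, 7.87 and 8.77 on the scrambled arrays and 5.25, 5.31 and 5.63 on the Myb shRNA arrays, a difference of -2.68 ± 0.26 (SE), adjusted p = 1.01e-05. Every scrambled array was above every Myb shRNA array, and a single Myb shRNA array was above the detection threshold. Mcidas encodes Multicilin, the coactivator that starts centriole amplification. It read 8.22, 8.15 and 9.41 on the scrambled arrays and 6.50, 6.32 and 7.00 on the Myb shRNA arrays, a difference of -1.99 ± 0.33 (SE), adjusted p = 0.000732. Replicate 3 was the highest array of each group and the groups did not overlap.

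Ccno, a cyclin needed to make centrioles in number, read 11.72, 11.90 and 12.65 on the scrambled arrays and 10.17, 10.06 and 10.55 on the Myb shRNA arrays, which is 3.56-fold (95% interval 2.56 to 4.95) lower with Myb shRNA (adjusted p = 6.44e-05). Foxj1, the forkhead factor of motile cilia, read 6.58, 6.82 and 6.91 on the scrambled arrays and 5.37, 5.08 and 5.70 on the Myb shRNA arrays, and the difference was -1.39 ± 0.26 (SE), adjusted p = 0.00198. It was above the detection threshold on all scrambled arrays and on 1 Myb shRNA array. Mycl, a MYC family factor, read 10.79, 11.01 and 11.91 on the scrambled arrays and 9.61, 9.18 and 10.48 on the Myb shRNA arrays, a difference of -1.48 ± 0.31 (SE), adjusted p = 0.00377.

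Ccdc78, a protein of the deuterosome (the organelle on which centrioles are multiplied), was undetected on all Myb shRNA arrays. It was at least 2.00-fold lower (means 6.49 ± 0.48 to 4.88 ± 0.14; adjusted p = 0.000423), where the bound sets the scrambled mean against the lowest detected level of each Myb shRNA array. Every gene given here and below with an "at least" fold passed the detection filter through 1 group only. Its adjusted p is therefore no separate support for a difference. Ankrd54, an ankyrin repeat protein, read 9.71, 9.67 and 9.70 on the scrambled arrays and 8.76, 8.70 and 8.59 on the Myb shRNA arrays, with little spread within either group. Tapt1, a transmembrane protein linked to cilia, differed by -0.42 ± 0.12 (SE), adjusted p = 0.0215. That call was lost with scrambled array 2 or Myb shRNA array 1 or 2 left out, and the adjusted p was 0.0546 without both arrays numbered 3. Rfx2, an activator of cilia genes, read 8.17, 8.27 and 9.41 on the scrambled arrays and 7.72, 7.66 and 8.35 on the Myb shRNA arrays. Its groups overlapped and its difference of -0.71 ± 0.31 (SE) did not pass (adjusted p = 0.111), though it did with the replicate number as a block (adjusted p = 0.00139). The Multicilin partners E2f4 and E2f5 differed by -0.15 ± 0.15 and -0.23 ± 0.16 (SE; adjusted p = 0.476 and 0.327). Their dimer partners Tfdp1 and Tfdp2, together with Foxa1, Foxa2 and Rfx1, gave differences of -0.01 to 0.27, none past the threshold, and in all 5 the groups overlapped.

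**Figure D1:**
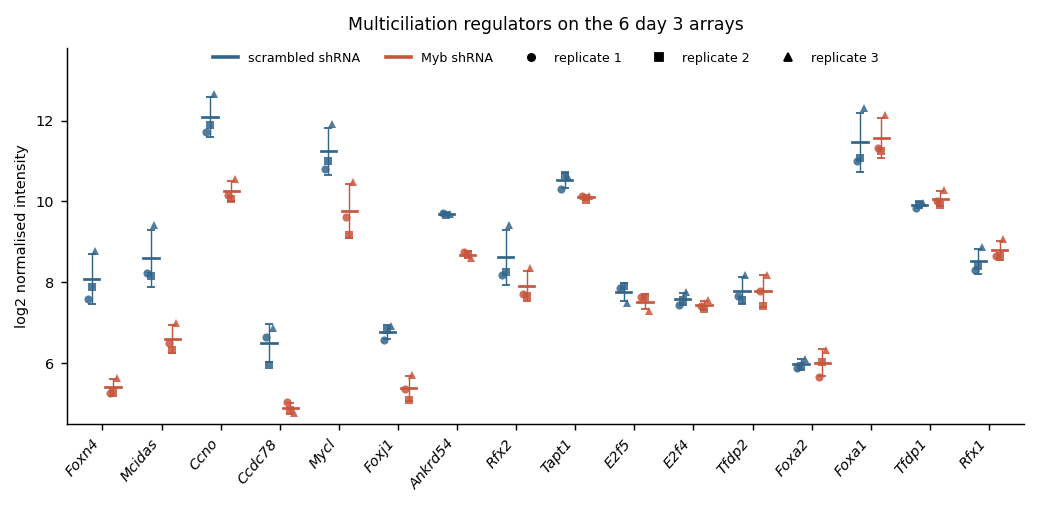
Log2 normalised intensity of the 16 measured multiciliation regulators on each day 3 array; symbols mark the replicate, bars the mean and SD of 3 arrays. Foxn4, Mcidas, Ccno, Ccdc78, Mycl, Foxj1, Ankrd54 and Tapt1 show groups that do not overlap, as do 3256 of the 8782 genes tested. Foxn4 has the widest gap between means (8.08 against 5.40).

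Genes of centriole amplification fell as well. Of 38 with a probe 25 were tested, 15 were lower and 0 higher, and the median was -0.72. Among the 19 detected on all 6 arrays 9 were lower. The centrin Cetn4, a calcium-binding protein of basal bodies, fell most, from 10.28 ± 0.30 to 7.83 ± 0.24 (SD, n = 3 per group). Cep83, a distal appendage protein that lets a centriole dock at the membrane, read 9.67, 9.73 and 10.61 on the scrambled arrays and 8.18, 8.02 and 8.30 on the Myb shRNA arrays, a difference of -1.84 ± 0.25 (SE), adjusted p = 0.000167. Mdm1 (a centriolar microtubule-binding protein) and Cep78 (a centriole wall protein) differed by -1.91 ± 0.21 and -1.31 ± 0.18 (SE). Each of these 4 separated the groups completely. Deup1 and Plk4, which drive the multiplication itself, were each detected on a single scrambled array and could not be tested.

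Genes of transport into the cilium fell too. Of 44 genes of intraflagellar transport (IFT) and the BBSome with a probe, 31 were tested, 15 were lower and 0 higher, the median was -0.62, and 30 of the 31 lay below 0. All 15 were among the 29 detected on every array. With the replicate number as a block 23 were lower. By complex, a split made after the values were seen, 8 of 12 IFT-B genes were lower (median -0.80), 1 of 3 IFT-A genes (-0.44), 3 of 6 BBSome genes (-0.69), 2 of 4 dynein-2 genes (-0.63) and 0 of 3 kinesin-2 genes (-0.44). Ift22, a small GTPase of IFT-B, read 9.92, 9.63 and 9.63 on the scrambled arrays and 7.98, 8.40 and 7.68 on the Myb shRNA arrays, a difference of -1.71 ± 0.16 (SE), adjusted p = 9.24e-06. Cluap1 of IFT-B, Ift43 of IFT-A and Bbs5 of the BBSome fell by 1.21, 1.10 and 1.44, with SEs of 0.13, 0.11 and 0.14. At the transition zone, the gate at the base of the cilium, 9 of 18 genes were lower and 0 higher (median -0.68), and all 9 were among the 13 detected on every array. Tmem107 led them, from 11.71 ± 0.30 to 9.20 ± 0.05 (SD, n = 3 per group; adjusted p = 3.15e-07). The tectonic-like complex members B9d1, B9d2 and Tmem216 differed by -1.17 ± 0.12, -1.46 ± 0.20 and -0.95 ± 0.13 (SE).

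Most tested genes of the motile axoneme fell. Among tektins and other proteins inside the doublet microtubules, 13 of 15 tested were lower, none higher, with a median of -2.55. Of the 24 with a probe 9 could not be tested. Of the 8 detected on all 6 arrays 7 were lower. Morn5, a MORN repeat protein, read 10.05, 9.79 and 10.32 on the scrambled arrays and 5.93, 6.38 and 6.29 on the Myb shRNA arrays, 14.4-fold (95% interval 11.2 to 18.7) lower. Tekt1, a filament protein of the doublets, read 10.14, 9.94 and 10.85 on the scrambled arrays and 6.29, 6.43 and 6.70 on the Myb shRNA arrays, a difference of -3.83 ± 0.28 (SE), adjusted p = 9.02e-07. Cfap161 was above background on no Myb shRNA array and was at least 11.0-fold lower (means 8.95 ± 0.41 to 5.02 ± 0.10; adjusted p = 1.6e-07). Pifo, a protein of ciliary disassembly, fell by 2.63 on the log2 scale. Nme7 rests on a choice of probe: the probe used, which has the highest mean, differed by 0.02 and the 5 other kept probes by -0.07 to -1.10.

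Radial spoke, central pair and nexin-dynein link genes gave 19 lower of 22 tested, 0 higher and a median of -1.98, and all 13 detected on every array were lower. Of the 39 with a probe 17 could not be tested, and with no detection filter the median of the 39 was -0.79. Lrrc23, a radial spoke protein, had the largest fall of any named gene tested. It read 10.20, 10.29 and 10.99 on the scrambled arrays and 6.12, 6.79 and 6.40 on the Myb shRNA arrays, 16.6-fold (95% interval 11.5 to 24.1) lower (adjusted p = 3.07e-07). Rsph1 and Rsph9, of the spoke head, differed by -3.23 ± 0.27 and -2.53 ± 0.16 (SE), Cfap206 by -3.11 ± 0.25 and the spoke protein Nme5 by -2.56 ± 0.20.

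Axonemal dyneins and their docking proteins gave 11 lower of 13 tested, with a median of -1.56, and 13 of the 26 with a probe could not be tested. Of the 7 members detected on every array 6 were lower. Dynlrb2, a dynein light chain, read 12.54, 12.31 and 13.01 on the scrambled arrays and 9.49, 9.42 and 9.72 on the Myb shRNA arrays, a difference of -3.08 ± 0.19 (SE), adjusted p = 3.07e-07. The inner arm light chain Dnali1 and the docking factor Ccdc151 differed by -3.00 ± 0.21 and -2.70 ± 0.30 (SE). Efcab1, a calaxin of the outer arm, was at least 4.99-fold lower (adjusted p = 9.02e-07; means 7.81 ± 0.25 to 5.19 ± 0.21). Of the heavy chains, the motors of the arms, Dnah8 was at least 1.58-fold lower (means 6.15 ± 0.07 to 5.08 ± 0.17; adjusted p = 0.000199). Dnah2 differed by -0.88 ± 0.28 (SE), adjusted p = 0.0374, and lost its call with any one of the 6 arrays left out. Dnah9 and Dnah11 gave -0.96 and 0.31 without passing, and Dnah9 passed with the block (adjusted p = 0.00076).

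Cytoplasmic factors that assemble dynein arms were lower in 9 of 12 tested and higher in 1 (median -1.16), and 6 of the 18 with a probe could not be tested. Of the 8 detected on every array 5 were lower and 1 higher. Zmynd10 fell most, from 8.70 ± 0.44 to 5.49 ± 0.19 (SD, n = 3 per group; adjusted p = 6.67e-07), and Ccdc103, not above background on any Myb shRNA array, was at least 2.92-fold lower (means 7.04 ± 0.11 to 5.27 ± 0.13; adjusted p = 1.65e-06). Dnajb13, a spoke cochaperone, and Dnaaf3 differed by -2.55 ± 0.24 and -2.19 ± 0.26 (SE). The AAA+ helicases Ruvbl1 and Ruvbl2, which cells also use outside cilia, differed by -1.21 ± 0.18 and -1.10 ± 0.17 (SE). The values of the 1 higher member, Wdr92, and of Dnaaf1 depended on the probe. The used Wdr92 probe differed by 1.67 ± 0.21 (SE) and its other probe by -1.09 ± 0.13. The used Dnaaf1 probe differed by 0.22 ± 0.11 (SE), and the other read 9.44 ± 0.65 with scrambled and 6.53 ± 0.24 with Myb shRNA, a difference of -2.91.

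A list of other ciliated cell genes fell in the same way, with 25 of 28 lower, 0 higher and a median of -1.95. Of the 39 with a probe 11 could not be tested. This list is not separate from the others, as Dynlrb2 is also on the dynein list and Aqp5 on the alveolar type 1 list. Of the 17 detected on every array 14 were lower. The clone 1110017D15Rik read 10.51, 10.46 and 10.69 on the scrambled arrays and 7.15, 7.30 and 7.41 on the Myb shRNA arrays, a difference of -3.27 ± 0.18 (SE), adjusted p = 1.61e-07. Riiad1 and Tppp3 (a tubulin polymerisation protein) differed by -2.87 ± 0.18 and -2.61 ± 0.17 (SE). Ccna1, the A-type cyclin of germ cells, also fell: it was above background on no Myb shRNA array and at least 9.12-fold lower (means 8.68 ± 0.30 to 4.94 ± 0.14; adjusted p = 1.6e-07). Among the remaining 15 largest falls were Tsnaxip1 and Ttc29, at least 6.01 and 5.95-fold lower (adjusted p = 3.39e-06 and 1.1e-05). Genes known only by a clone name or number, such as 1110017D15Rik, were left out of that ranking. Lrrc34, Fam166c, Bbof1 and the skin gene Dmkn fell by 3.51, 3.32, 3.20 and 3.31 on the log2 scale. Bbof1 was above background on only 1 Myb shRNA array, so the size of its fall is uncertain. Ttc29 has a second kept probe, which differed by -1.93. In RNA from a whole culture, fewer cells of a type and less RNA per cell of that type cannot be told apart.

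**Figure D2:**
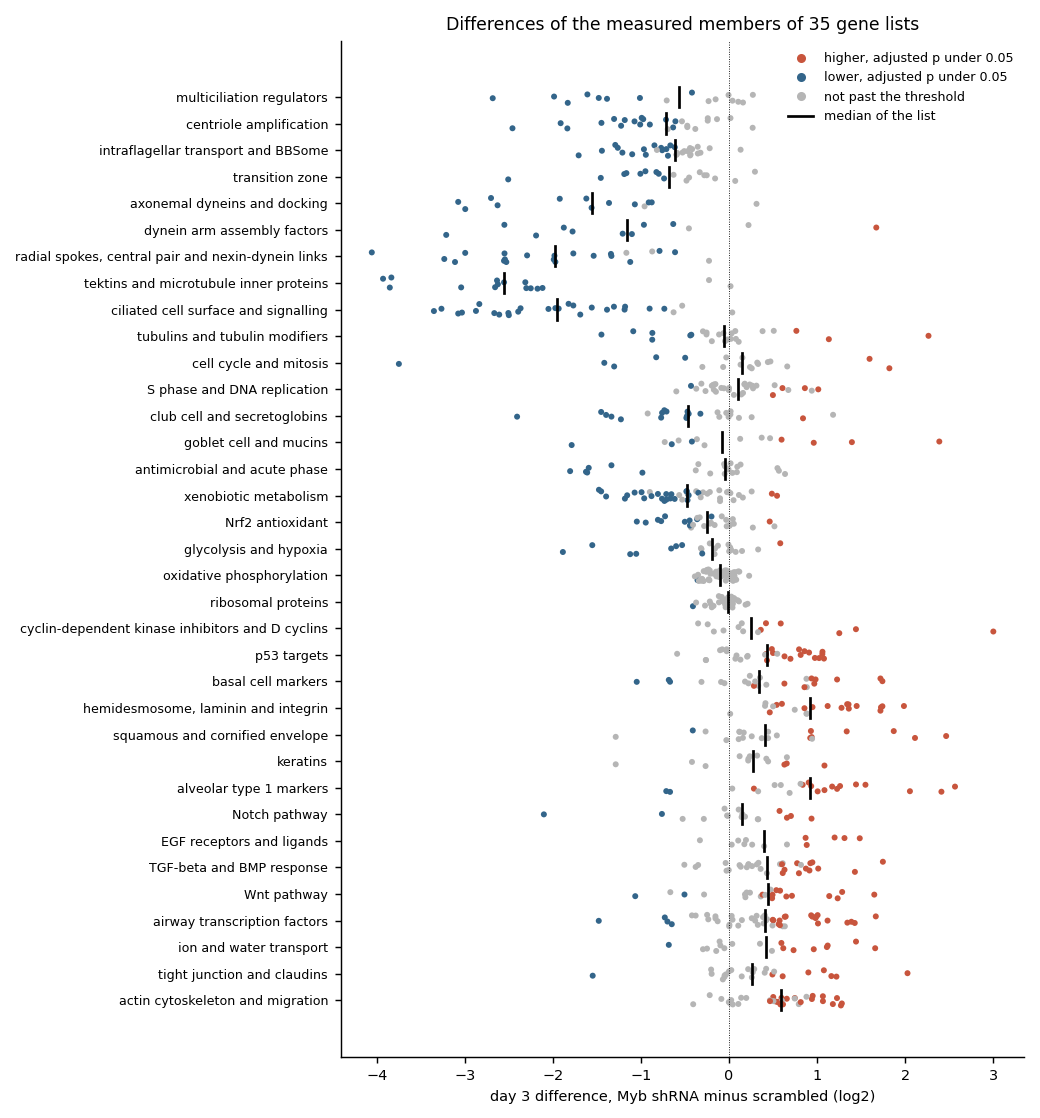
Day 3 difference (Myb shRNA minus scrambled, log2) of each measured member of 35 gene lists; each point is a gene, coloured by its call, and black bars mark list medians. The axoneme lists and the list of other ciliated cell genes lie furthest to the left, with medians of -1.16 to -2.55, and the alveolar type 1 list and the hemidesmosome, laminin and integrin list lie furthest to the right, with medians of 0.92.

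Tubulins and their modifying enzymes did not move as 1 group: 6 of 24 tested were lower and 3 higher, with a median of -0.05. Without both arrays numbered 3 the count lower was 3, and with the block the count higher was 5. Ccp110, which caps centrioles until cilia form, and Tube1, a tubulin of centriole triplets, differed by -1.45 ± 0.23 and -1.09 ± 0.20 (SE). Tubb2b, a beta tubulin, rose instead, with 10.32, 10.37 and 9.98 on the scrambled arrays and 11.49, 11.42 and 11.16 on the Myb shRNA arrays (1.13 ± 0.15, SE). Ttll11, a polyglutamylating enzyme, read 2.26 by the probe used and 0.50 by its other probe.

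Cell cycle genes moved in both directions. Among mitotic genes 5 of 19 were lower and 2 higher, and the number lower was 3 without scrambled replicate 1 or without Myb shRNA replicate 1. Of the 15 detected on every array 4 were lower and 1 higher. Beside Ccna1, the lower ones were Aurka, the kinase of centrosome maturation, Cdk1, Cdc20 and Bub3. Cdk1, the kinase of mitotic entry, read 9.50, 9.25 and 9.32 on the scrambled arrays and 8.04, 8.02 and 8.11 on the Myb shRNA arrays, a difference of -1.30 ± 0.15 (SE), adjusted p = 3.83e-05. Aurka differed by -1.42 ± 0.25 (SE), and Cdc20 and Bub3 each kept their call with 2 of the 6 arrays left out one at a time. Top2a, Plk1 and Bub1b gave -0.07, 0.13 and 0.15 without passing. Mki67, a marker of cycling cells, was detected on no scrambled array and on all Myb shRNA arrays, where it read 6.67, 5.73 and 7.70 (at least 2.17-fold higher; adjusted p = 0.00601; means 5.10 ± 0.08 to 6.70 ± 0.98). Kif23, a kinesin of cell division, differed by 1.82 ± 0.20 (SE) by its used probe and by 0.48 and 0.61 by the others. In S phase 4 of 32 genes were higher and 1 lower (median 0.10), the first close to the share of all genes. With the block 7 were higher, 2 without scrambled replicate 1 or Myb shRNA replicate 3, and 1 without both arrays numbered 3. Of the 7 minichromosome maintenance genes, which license replication origins, 3 were higher, and the 7 differences ran from -0.60 to 1.01. Mcm4 differed by 0.86 ± 0.19 (SE; adjusted p = 0.00577). Mcm10 differed by 1.01 ± 0.24 and Mcm2 by 0.61 ± 0.16 (SE), and neither passed without both arrays numbered 3 (adjusted p = 0.0649 and 0.0525).

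Inhibitors of the cycle and D cyclins rose in 6 of 14 tested and fell in 0 (median 0.24). Cdkn2a, which encodes p16 and p19ARF, read 6.02, 5.59 and 4.96 on the scrambled arrays and 8.65, 8.72 and 8.20 on the Myb shRNA arrays (adjusted p = 3.93e-06). It was above background on 1 of the 3 scrambled arrays and on all Myb shRNA arrays, so the size of its rise is uncertain. Its neighbour on chromosome 4, Cdkn2b (p15), read 9.52, 9.58 and 8.63 on the scrambled arrays and 10.67, 10.51 and 10.31 on the Myb shRNA arrays, and the growth cyclin Ccnd2 rose from 11.19 ± 0.28 to 12.63 ± 0.22 (SD, n = 3 per group). Cdkn1a (p21) rose by 0.42 ± 0.10 (SE), while Cdkn1b and Cdkn1c gave -0.24 and -0.35 without passing. Targets of p53 gave 15 higher of 29 tested and 0 lower, with a median of 0.43, and all 29 were detected on every array. With the block 17 were higher and 1 lower. Ccng1, a cyclin induced by p53, read 11.54, 11.56 and 11.16 on the scrambled arrays and 12.39, 12.37 and 12.42 on the Myb shRNA arrays. The apoptosome protein Apaf1, the RNA-binding protein Zmat3 and Gtse1 differed by 1.08 ± 0.16, 1.06 ± 0.16 and 1.06 ± 0.15 (SE).

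Genes that anchor an epithelium to its basement membrane rose. Of 22 hemidesmosome, laminin and integrin genes tested, 15 were higher and 0 lower, the median was 0.92, and all 22 differences lay above 0. Of the 18 detected on every array 12 were higher. All 5 laminin chains tested were higher, by 0.95 to 1.74 (a split made after the values were seen), and the call of Lamb2 was lost with scrambled array 1 or 2 or Myb shRNA array 3 left out. Lama3 and Lamb3, chains of the laminin of hemidesmosomes, were detected on all 6 arrays. Lama3 read 7.76, 8.14 and 7.57 on the scrambled arrays and 9.58, 9.25 and 9.86 on the Myb shRNA arrays. Lamb3 read 9.87, 10.20 and 10.05 on the scrambled arrays and 11.58, 11.47 and 12.23 on the Myb shRNA arrays. Their differences were 1.74 ± 0.18 and 1.72 ± 0.20 (SE; adjusted p = 1.62e-05 and 5.11e-05). Lama5 and Lamc1, chains of broader basement membranes, differed by 1.45 ± 0.32 and 1.73 ± 0.31 (SE), with Myb shRNA replicate 3 the highest array in both. Nid1, a linker of laminin and collagen, was above background only with Myb shRNA, at least 2.40-fold higher (means 4.86 ± 0.21 to 6.85 ± 0.42; adjusted p = 1.52e-05). Among 8 integrin subunits 4 were higher, with Itga3 at 1.36 ± 0.16 and Itgb6, which activates TGF-beta, at 1.34 ± 0.16 (SE), while Itgb1 gave 0.01. The hemidesmosome plaque genes Col17a1, Dst and Plec gave 0.88, 0.88 and 0.75 and did not pass (adjusted p = 0.125, 0.052 and 0.0982). Array 3 was the highest of each group for all 3, and all 3 passed with the block (adjusted p = 0.000128, 0.000819 and 0.00017) and without arrays numbered 3 (adjusted p = 0.00497, 0.00238 and 0.0151).

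Basal cell markers went both ways. Of 24 tested 9 were higher and 3 lower (median 0.34), and the number higher was 4 or 5 with scrambled array 1 or 2 or Myb shRNA array 1 or 3 left out and 14 with scrambled array 3 left out. Trp63, the basal cell factor, read 7.65, 7.51 and 8.87 on the scrambled arrays and 8.95, 8.61 and 9.41 on the Myb shRNA arrays. Its groups overlapped through scrambled replicate 3, and its call (0.98 ± 0.29 (SE), adjusted p = 0.0266) was lost with scrambled array 1 or 2 or Myb shRNA array 1 or 3 left out. Krt5, the usual basal keratin, read 8.82, 8.54 and 9.80 on the scrambled arrays and 9.06, 9.20 and 9.56 on the Myb shRNA arrays, with overlapping groups and a difference of 0.22 ± 0.28 (SE; adjusted p = 0.597). Krt14 differed by 0.63 ± 0.19 (SE), adjusted p = 0.0313, which was lost with scrambled array 1 or 2 or Myb shRNA array 1, 2 or 3 left out and stood at 0.0601 without both arrays numbered 3. Krt7 and Krt19, keratins of simple epithelia, rose by 1.08 ± 0.15 and 0.65 ± 0.09 (SE). They and Krt14 were the 3 of 14 keratins that were higher, and with the block or without scrambled replicate 3 the number higher was 5. Cav1, a caveola protein, rose by 1.23 ± 0.20 (SE), and Hcar2, a niacin receptor placed in the basal list, was lower by 1.05.

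Squamous genes gave 7 higher and 1 lower of 22 (median 0.41), and 11 higher with the block. Sprr1a, a protein of the cornified envelope, read 7.05, 6.77 and 6.06 on the scrambled arrays and 8.93, 9.15 and 9.20 on the Myb shRNA arrays, a difference of 2.47 ± 0.27 (SE), adjusted p = 2.84e-05. Ivl (involucrin) and Tgm1, the enzyme that crosslinks it, rose by 2.11 ± 0.37 and 1.87 ± 0.20 (SE), and Ppl (periplakin) by 0.92 ± 0.15. The other 3 Sprr genes tested gave -0.03 to 0.17, and none passed. Krt13, a keratin of stratified epithelia, gave -1.29 ± 1.00 (SE; adjusted p = 0.374), and 2.84e-06 with the block.

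Secretory genes moved in both directions. Of 26 club cell genes tested 14 were lower and 1 higher (median -0.47), and all 3 secretoglobins, the secreted proteins that mark club cells, were lower. Of the 24 detected on every array 13 were lower and 1 higher. Scgb3a1 read 8.97, 8.73 and 10.12 on the scrambled arrays and 6.69, 6.98 and 6.94 on the Myb shRNA arrays, a difference of -2.41 ± 0.27 (SE), adjusted p = 3.83e-05. Scgb1a1 and Scgb3a2 differed by -1.23 ± 0.26 and -0.77 ± 0.21 (SE; adjusted p = 0.00375 and 0.0176), the latter with overlapping groups and lost with Myb shRNA array 1 or 2 left out. Cyp2f2, a cytochrome P450 of club cells, gave 0.11 without passing. Bpifa1, a surfactant-like secreted protein, was the 1 higher member, with 11.21, 11.31 and 11.37 on the scrambled arrays and 11.95, 12.29 and 12.16 on the Myb shRNA arrays (0.84 ± 0.11, SE).

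Goblet cell genes gave 4 higher and 3 lower of 14 (3 and 3 of the 12 detected on every array), and the defining mucin Muc5ac and Agr2 were detected on no array. The membrane mucin Muc16 was above background only with Myb shRNA, where it read 7.77, 6.80 and 8.18, and was at least 4.00-fold higher (means 5.19 ± 0.12 to 7.58 ± 0.71; adjusted p = 0.000174). Slc12a2, a chloride cotransporter, rose by 0.96 ± 0.16 (SE). Spdef, the goblet cell factor, differed by -0.65 ± 0.16 (SE), adjusted p = 0.00913, and by an adjusted p of 0.0718 without both arrays numbered 3. Dmbt1, a mucosal defence protein, was lower by 1.79. The number lower was 5 with the block and 1 without arrays numbered 3, and the number higher was 2 without scrambled replicate 1 or 2 or Myb shRNA replicate 3.

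Of 22 antimicrobial and acute phase genes 6 were lower and 0 higher (median -0.05). The lectin Reg3g read 13.03, 12.95 and 13.53 on the scrambled arrays and 11.51, 11.63 and 11.54 on the Myb shRNA arrays, a difference of -1.61 ± 0.13 (SE), adjusted p = 2.33e-06. The lysozymes Lyz1 and Lyz2, whose near-identical sequences can share probe signal, differed by -1.59 ± 0.22 and -1.80 ± 0.23, the acute phase protein Orm1 by -1.62 ± 0.22 and the chemokine Cxcl17 by -0.98 ± 0.17 (SE). Slpi and Lcn2 gave -0.02 and -0.01 without passing. Interferon-stimulated genes gave 2 higher and 2 lower of 24 with a median of -0.01, each below the share of all genes. Of the 18 detected on every array 0 were higher and 1 lower. Of the 4, Tap1 (0.87 ± 0.18, SE) kept its call without arrays numbered 3, and Ifit2, Ifitm1 and Rsad2 did not (adjusted p = 0.0793, 0.0871 and 0.207).

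Detoxifying enzymes, which club cells hold in quantity, were lower in 22 of 43 tested and higher in 2 (median -0.48). Of the 36 detected on every array 19 were lower and 1 higher. Of 4 aldehyde dehydrogenases 3 were lower. Aldh1a1 read 11.11, 11.44 and 11.48 on the scrambled arrays and 10.11, 9.95 and 9.62 on the Myb shRNA arrays, Aldh1a7 differed by -1.40 ± 0.13 and Aldh3b1 by -1.18 ± 0.11 (SE). The retinol-oxidising Adh7 was lower by 0.67 ± 0.08 (SE). Of 11 cytochromes P450 5 were lower and 2 higher, and of 12 glutathione transferases 3 were lower. Nrf2 targets gave 10 lower and 1 higher of 28, and the number lower was 4 or 5 with scrambled array 1 or 2 or Myb shRNA array 1 or 3 left out. Gpx2, a glutathione peroxidase, Sod2 and Gclm, of glutathione synthesis, differed by -0.50 ± 0.10, -0.44 ± 0.08 and -0.73 ± 0.18 (SE) and kept their calls in each of these fits.

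**Figure D3:**
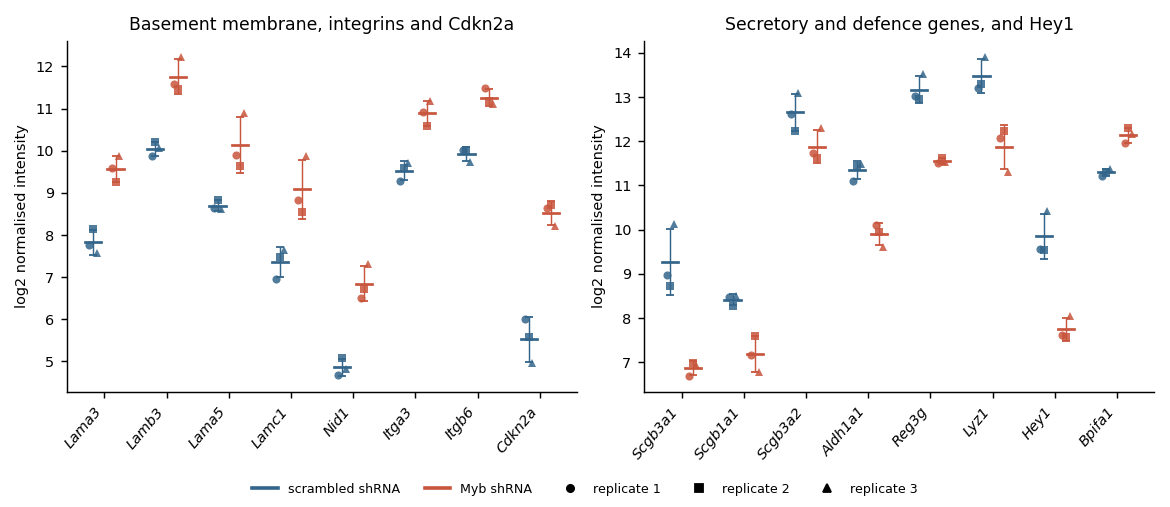
Log2 normalised intensity on each day 3 array of 8 genes of the basement membrane, integrins and Cdkn2a (left), and of 8 secretory, defence and Notch target genes (right); bars are the mean and SD of 3 arrays. The groups separate for every gene shown except Scgb3a2, and Bpifa1 is the only gene of the right panel that is higher with Myb shRNA.

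Notch decides between secretory and ciliated fates, and its target Hey1 fell while Hes1 did not pass. Hey1 read 9.56, 9.54 and 10.43 on the scrambled arrays and 7.61, 7.58 and 8.04 on the Myb shRNA arrays, a difference of -2.10 ± 0.22 (SE), adjusted p = 1.83e-05. Hes1 read 10.26, 10.16 and 10.48 on the scrambled arrays and 10.10, 10.28 and 10.47 on the Myb shRNA arrays (-0.01 ± 0.12, SE; adjusted p = 0.948). Hes6, a Hes family member that antagonises Hes1, was lower by 0.76, and the receptor Notch3 was higher by 0.70. Of 17 Notch pathway genes 4 were higher and 2 lower, and the number higher was 1 or 2 with scrambled array 1 or 2 or Myb shRNA array 1 or 3 left out. The ligand Jag2 was among those (0.94 ± 0.28 (SE), adjusted p = 0.0282; 0.0561 without arrays numbered 3). Dll1 gave 0.33 and Notch2 0.14 without passing.

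Receptors and ligands of growth signalling were more often higher than lower. Of 13 EGF pathway genes 5 were higher and 0 lower (median 0.40). The number was 3 with scrambled array 3 or Myb shRNA array 1 or 2 left out. Egfr, the receptor, read 8.75, 8.67 and 8.91 on the scrambled arrays and 9.98, 9.69 and 10.25 on the Myb shRNA arrays, a difference of 1.20 ± 0.14 (SE), adjusted p = 4.19e-05. Its feedback inhibitor Errfi1 rose by 1.31 ± 0.19 and Phlda1 by 1.48 ± 0.36 (SE). The ligand Nrg1 differed by 0.87 ± 0.26 (SE), adjusted p = 0.0284, and did not pass without arrays numbered 3 (0.119). TGF-beta and BMP genes gave 12 higher and 0 lower of 31 (median 0.43). The ligand Tgfb3 read 6.36, 6.25 and 5.73 on the scrambled arrays and 7.52, 7.55 and 7.56 on the Myb shRNA arrays. The signal transducer Smad3, the target Id1 and the procollagen protease Bmp1 rose by 0.87 ± 0.18, 0.95 ± 0.15 and 0.92 ± 0.14 (SE), and Fst (follistatin), which binds activin, by 1.75 ± 0.44, a call lost with Myb shRNA array 1 left out.

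Wnt genes gave 11 higher and 2 lower of 22 (median 0.44). The number higher was 6 without scrambled replicate 1, 5 without Myb shRNA replicate 3, and 6 without both arrays numbered 3. The ligand Wnt10a read 6.59, 6.69 and 6.07 on the scrambled arrays and 8.13, 8.19 and 7.98 on the Myb shRNA arrays, a difference of 1.65 ± 0.24 (SE), adjusted p = 0.000254. The receptors Fzd2 and Lgr6 rose by 1.14 ± 0.23 and 1.28 ± 0.18 (SE). Porcn, the enzyme that lets Wnt ligands be secreted, was lower, with 9.39, 9.40 and 9.80 on the scrambled arrays and 8.29, 8.58 and 8.52 on the Myb shRNA arrays (-1.07 ± 0.14, SE). Of 13 planar polarity genes 2 were lower, and both act on cilia: Wdpcp (-1.44 ± 0.22) and Fuz (-0.67 ± 0.15, SE). The 2 higher were Ptk7 and Fzd6, at 0.85 ± 0.23 and 0.54 ± 0.14, and Fzd6 did not pass without arrays numbered 3 (adjusted p = 0.0798). The number higher was 1 without scrambled replicate 1 and 0 without Myb shRNA replicate 3, where neither passed.

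Transcription factors of airway cells were higher in 18 of 48 tested and lower in 4 (median 0.40). Of the 45 detected on every array 15 were higher and 4 lower. Sox4, an SRY-box factor of progenitors, read 9.59, 9.46 and 9.79 on the scrambled arrays and 10.99, 10.80 and 11.22 on the Myb shRNA arrays, a difference of 1.39 ± 0.17 (SE), adjusted p = 5.91e-05. Klf4, a factor of epithelial differentiation, was above background only with Myb shRNA and at least 2.20-fold higher (means 5.38 ± 0.22 to 6.72 ± 0.06; adjusted p = 0.000159). Tead2, a partner of YAP, and Ets1 rose by 1.43 ± 0.19 and 1.12 ± 0.17 (SE). All 3 TEAD genes tested were higher. Tead1 lost its call with scrambled array 1 or 2 or Myb shRNA array 3 left out, and Tead4 with any single array left out. Sox2, which marks airway fate, was lower by 0.70, a call lost with scrambled array 3 or Myb shRNA array 1 or 2 left out. The number lower was 2 without Myb shRNA replicate 2 or without both arrays numbered 3.

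Genes used as markers of alveolar type 1 cells were higher in 14 of 22 tested and lower in 2 (median 0.92). Of the 18 detected on every array 12 were higher and 2 lower. Ager, the receptor for advanced glycation end products, read 8.33, 8.14 and 6.68 on the scrambled arrays and 9.93, 10.10 and 10.35 on the Myb shRNA arrays, 5.32-fold (95% interval 3.16 to 8.96) higher. Igfbp2, an insulin-like growth factor binding protein, rose from 5.32 ± 0.40 to 7.88 ± 0.15 (SD, n = 3 per group; adjusted p = 2.18e-05). It was above background on 1 of the 3 scrambled arrays, so the size of its rise is uncertain. Emp2, Gprc5a and Krt7 rose by 1.17 ± 0.13, 0.84 ± 0.11 and 1.08 ± 0.15 (SE). Aqp5, the water channel of those cells, which serous airway cells also make, gave 0.04 without passing, and Cldn18 and Rtkn2 were detected on no array. None of the 4 type 2 markers tested passed, Sftpc was undetected, and Sftpd and Cxcl15 gave -0.13 and 0.02. With the block 2 of the 4, Abca3 and Il33, were higher (adjusted p = 0.00478 and 0.0327).

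Ion and water transport genes gave 8 higher and 1 lower of 18 (median 0.42). All 3 subunits of the epithelial sodium channel were higher. Scnn1g read 9.51, 9.76 and 8.25 on the scrambled arrays and 10.42, 10.29 and 11.14 on the Myb shRNA arrays, a difference of 1.44 ± 0.34 (SE), adjusted p = 0.00827, and scrambled replicate 3 was its lowest array. Scnn1a and Scnn1b differed by 0.73 ± 0.19 and 1.66 ± 0.40 (SE), the former lost with scrambled array 1 or Myb shRNA array 3 left out and at an adjusted p of 0.0572 without arrays numbered 3. The chloride channel Ano1 and the bicarbonate transporter Slc4a4 rose by 1.11 ± 0.19 and 1.12 ± 0.22. Tight junction genes gave 7 higher and 1 lower of 24, and 9 claudins split into 2 higher, 1 lower and 6 not past the threshold. Cldn6, a claudin of embryonic epithelia, rose from 8.43 ± 0.08 to 10.46 ± 0.42 and Cldn4 by 1.16 ± 0.22 (SE), while Cldn10 read 10.05, 9.78 and 10.15 on the scrambled arrays and 8.78, 9.03 and 7.51 on the Myb shRNA arrays. The cadherin Cdh3 and the polarity protein Pard6b rose by 1.22 ± 0.20 and 0.90 ± 0.19 (SE).

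The actin cytoskeleton list gave 20 higher and 0 lower of 37 (median 0.59), and 36 of the 37 were detected on every array. With the block 27 were higher and 1 lower. Tpm1, a tropomyosin, read 12.32, 12.31 and 12.07 on the scrambled arrays and 13.43, 13.34 and 13.13 on the Myb shRNA arrays, a difference of 1.07 ± 0.11 (SE), adjusted p = 1.56e-05. The actin crosslinker Flna and the membrane linker Msn rose by 1.28 ± 0.17 and 1.27 ± 0.20 (SE). Actb is uncertain: the probe used differed by 0.56 ± 0.09 and 1 other by 0.59, and the remaining 3 gave -0.29, -1.35 and -1.52. Matrix proteases and their regulators gave 8 higher and 4 lower of 25, 13 higher with the block, and 2 lower without Myb shRNA replicate 1. Mmp14, a membrane metalloprotease, read 11.37, 11.47 and 11.85 on the scrambled arrays and 13.05, 12.86 and 13.23 on the Myb shRNA arrays, a difference of 1.49 ± 0.13 (SE), adjusted p = 5.11e-06. Timp2, an inhibitor that also helps it act, the protease Ctsc and the protease inhibitor Serpine2 rose by 0.98 ± 0.10, 1.34 ± 0.17 and 1.27 ± 0.16 (SE). Senescence-associated secreted factors gave 6 higher and 0 lower of 18, among them Mmp14, Timp2, Serpine2 and Igfbp2, all given above.

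Few genes of core metabolism passed the test. Of 48 oxidative phosphorylation genes 1 was lower, Cox4i1 (-0.36 ± 0.10 (SE), adjusted p = 0.016), and all 48 differences lay between -0.39 and 0.23. The count was 15 without scrambled replicate 3, 10 without both arrays numbered 3, 6 with the block and 3 without Myb shRNA replicate 2. It was 0 without scrambled replicate 1 or 2 or Myb shRNA replicate 1 or 3, where Cox4i1 did not pass. Ribosomal proteins gave 1 lower of 33 (Rpl22, -0.41 ± 0.11, SE), 5 without scrambled replicate 3 and 0 without Myb shRNA replicate 1 or 3. Rpl22 stood at an adjusted p of 0.0694 without both arrays numbered 3. The medians of these lists were -0.11 and -0.01. Genes of hypoxia and glycolysis gave 8 lower and 1 higher of 22 (5 and 1 of the 20 detected on every array). The hypoxia genes Ankrd37 and Egln3 differed by -1.55 ± 0.16 and -1.12 ± 0.19, the glycolytic enzyme Aldoc by -1.89 ± 0.20 (SE), and the peptide hormone Adm was at least 1.52-fold lower (means 6.09 ± 0.16 to 5.04 ± 0.12; adjusted p = 0.000503). Gapdh and Pkm gave 0.01 and 0.08 without passing. Cholesterol synthesis gave 4 lower and 0 higher of 23, and 7 lower with the block or without arrays numbered 3. It was 9 without scrambled replicate 3. Nsdhl, a sterol dehydrogenase, and Acsl3, a fatty acid activating enzyme, were lower by 0.92 and 0.77. Stress response genes gave 5 lower and 1 higher of 31 (8 lower with the block or without scrambled replicate 3, 3 without scrambled replicate 1 or 2 or Myb shRNA replicate 1, and 2 without Myb shRNA replicate 3), led by Xbp1 and Chac1 at -0.80 ± 0.14 and -1.36 ± 0.31 (SE).

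Markers of cells other than epithelium were mostly undetected. Of 34 fibroblast and smooth muscle genes with a probe 23 were detected on none of the 6 arrays, the collagens Col1a1, Col1a2 and Col3a1 and Pdgfra among them. The summed linear level of the list was 2860 to 4271 on the scrambled arrays and 7356 to 7838 on the Myb shRNA arrays. Sparc, given below, had the highest level of the list, so the sum does not stand for the list as a whole. Of the 10 tested 4 were higher and 0 lower, and of the 8 detected on every array 3 were higher. Decorin (Dcn), a main fibroblast product detected on every array, read 7.85, 7.56 and 7.49 on the scrambled arrays and 7.39, 7.37 and 8.14 on the Myb shRNA arrays, and Fn1, Fbln1, Acta2, Myl9 and Mgp gave -0.22 to 0.90 without passing. Sparc, a matrix protein, read 9.95, 9.84 and 9.17 on the scrambled arrays and 11.49, 11.56 and 11.84 on the Myb shRNA arrays, a difference of 1.98 ± 0.19 (SE), adjusted p = 1.11e-05 (1.14 and 2.34 by its other probes). Ogn and Lox, of collagen matrix, rose by 1.73 ± 0.27 and 1.28 ± 0.21 (SE), and Loxl1, not above background on any scrambled array, was at least 1.52-fold higher (means 5.20 ± 0.07 to 6.18 ± 0.59; adjusted p = 0.00911). Of 30 leukocyte genes 24 were undetected, including Ptprc, Cd3e and Itgam. Their sum was 10088 to 15057 with scrambled and 5283 to 6531 with Myb shRNA, Lyz2 included, and 3 of 5 tested were lower (1 without Myb shRNA replicate 3 or without arrays numbered 3). Cd74 rose by 1.03 ± 0.19 (SE), and Cd68 differed by -0.60 ± 0.16 (SE), adjusted p = 0.0141 (0.0826 without arrays numbered 3).

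Of 17 endothelial genes 14 were undetected, including Pecam1, Cdh5 and Kdr. Their sum was 745 to 984 with scrambled and 414 to 496 with Myb shRNA. Plvap had the highest level of the list, so the sum does not stand for the list as a whole. Plvap, a protein of endothelial diaphragms, read 9.13, 8.89 and 9.56 on the scrambled arrays and 6.34, 6.57 and 6.99 on the Myb shRNA arrays (-2.56 ± 0.21 (SE), adjusted p = 2.22e-06), and Esam, an adhesion molecule, rose by 1.57 ± 0.23 (SE). Cartilage genes were undetected in 14 of 17, among them Acan and Comp, with sums of 776 to 1247 and 903 to 1031. The 2 tested, Chad (-0.92 ± 0.32, SE) and Sox9 (0.42 ± 0.19, SE), did not pass. Both did with the block (adjusted p = 0.000509 and 0.045) and without arrays numbered 3 (adjusted p = 0.0223 and 0.0282). Chga, Pou2f3, Trpm5, Foxi1 and Alas2, markers of neuroendocrine, tuft, ionocyte and red blood cells, were detected on no array. Of 4 tuft and ionocyte genes tested 3 were lower, of which Gng13 and Atp6v1c2 gave -1.19 ± 0.21 and -1.11 ± 0.18 (SE), and P2ry14 was lost with scrambled array 1 or 2 or Myb shRNA array 3 left out. Uchl1, the 1 neuroendocrine gene tested, was at least 1.25-fold higher (adjusted p = 0.00083; means 4.91 ± 0.22 to 5.91 ± 0.11). The part of such cells in the differences was not tested beyond these levels.

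Rises were fewer and smaller than falls at the far ends of the distribution: 18 genes were higher by more than 2 and 93 were lower by more than 2. Both counts include genes that entered the test through 1 group only. The 15 largest rises with groups that do not overlap included, beside Cdkn2a, Igfbp2, Sprr1a, Ager, Muc16, Ttll11 and Ivl, several genes of matrix and guidance. This ranking also left out genes known only by a clone name or number. Spon2, a spondin of the matrix, read 5.55, 5.93 and 5.58 on the scrambled arrays and 8.13, 8.07 and 8.22 on the Myb shRNA arrays, a difference of 2.45 ± 0.18 (SE), adjusted p = 8.63e-07. Ccdc80 and Tinag, both of extracellular matrix, rose by 2.44 ± 0.40 and 2.15 ± 0.35 (SE). The axon guidance ligand Sema3c was above background only with Myb shRNA and at least 3.11-fold higher (means 4.74 ± 0.13 to 7.22 ± 1.20; adjusted p = 0.00661), and its receptor subunit Nrp1 rose by 2.06 ± 0.28 (SE). Tns1, a focal adhesion protein, was at least 2.88-fold higher (means 4.97 ± 0.32 to 7.11 ± 0.68; adjusted p = 0.000376). Sncg, a synuclein, and Rec8, a meiotic cohesin, rose by 2.19 ± 0.28 and 2.07 ± 0.30 (SE).

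**Figure D4:**
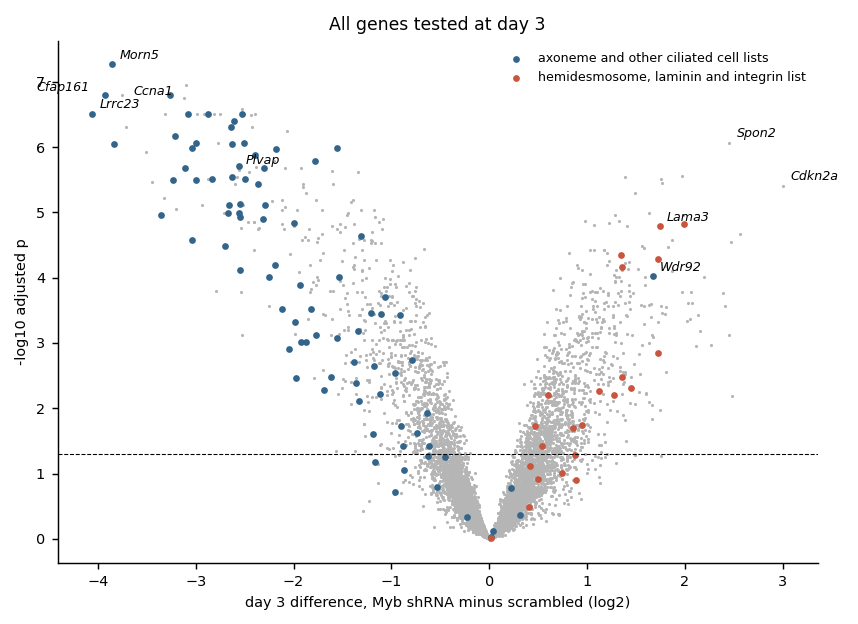
Each point is 1 of the 8782 genes tested at day 3: difference on the x axis (log2) and -log10 of the adjusted p on the y axis, with the 0.05 threshold dashed. Members of the axoneme and other ciliated cell lists fill the left arm, down to -4.06 for Lrrc23, and Wdr92 is the list member called on the right; the hemidesmosome, laminin and integrin list lies at or above 0.

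The same shRNAs were compared at day 9 to ask which day 3 differences were still present. On the 8782 genes, 854 were called on both days in the same direction, which is 40.5% of the 2111 day 3 calls and 66.0% of the 1294 day 9 calls, and 12 were called in opposite directions. The change of the shRNA difference between days (day 9 minus day 3) passed the threshold for 125 genes, 1.42% of those tested. It was positive for 68 and negative for 57. The number was 48 without day 3 Myb shRNA replicate 1, 263 without day 3 scrambled replicate 3 and 265 without both day 3 arrays numbered 3. Blocking all 12 arrays on replicate number gave 627. Of the 125, 63 were lower at day 3 with a positive change, and of these 36 were still below 0 at day 9 by a smaller amount.

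Foxn4, Mcidas and Ccno were among those 63. Mcidas stood at 8.07 ± 0.20 with scrambled and 8.30 ± 0.55 with Myb shRNA at day 9, a difference of 0.23 ± 0.33 (SE), and the change from day 3 was 2.21 ± 0.46 (SE), adjusted p = 0.0319. That call was lost without day 3 Myb shRNA replicate 1 or 2 (adjusted p up to 0.101). Ccno likewise moved from -1.83 ± 0.22 at day 3 to 0.28 ± 0.22 at day 9, a change of 2.11 ± 0.31 (SE), adjusted p = 0.00682. Foxn4 moved from -2.68 ± 0.26 to -0.53 ± 0.26, a change of 2.15 ± 0.37 (SE), adjusted p = 0.012. None of the 3 was called at day 9. Foxj1 and Mycl gave -0.42 ± 0.26 and -0.09 ± 0.31 (SE) at day 9 without passing, but their changes of 0.97 ± 0.37 (SE), adjusted p = 0.262, and 1.39 ± 0.44 (SE), adjusted p = 0.169, did not pass either. Only Ccdc78 and Ankrd54 of the 16 regulators were lower on both days.

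Most axoneme genes that were lower at day 3 were also lower at day 9. Of the 19 radial spoke and central pair genes lower at day 3, 18 were lower on both days (list median -1.42, against -1.98 at day 3), and of the 13 tektins and inner proteins lower at day 3, 12 were (list median -1.65, against -2.55). For dyneins and docking 9 of 11 were lower on both days, and for assembly factors 7 of 9, while 2 assembly factors were higher at day 9. The medians are a description, with no test of the lists. Lrrc23 had a smaller difference at day 9, -1.62 ± 0.25 (SE), adjusted p = 0.000708, and a change of 2.43 ± 0.35 (SE), adjusted p = 0.00619. Morn5, Tekt1, Dynlrb2, Dnali1, Zmynd10, Rsph9 and Tmem107 also had positive changes past the threshold, between 1.13 and 2.02, and all 7 were called lower at day 9. The change of Tekt1 was lost without day 3 scrambled replicate 1 or Myb shRNA replicate 1 or 2, and that of Rsph9 without Myb shRNA replicate 1 or 3. Cfap161 gave -2.72 ± 0.21 (SE), adjusted p = 1.47e-05 at day 9, and its change, which rests on a day 3 group not above background, did not pass (adjusted p = 0.0638). IFT and BBSome genes gave 19 lower of 31 at day 9 (median -0.74), with 0 of the 31 changes past the threshold.

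For some genes the difference had another sign at day 9 than at day 3, and for others it passed on 1 day only. Plvap was lower at day 3 and higher at day 9, where it differed by 1.01 ± 0.21 (SE), adjusted p = 0.00502, a change of 3.56 ± 0.29 (SE), adjusted p = 0.000123. Shisa8, a membrane protein, went from -2.36 ± 0.25 at day 3 (7.55, 7.55 and 8.31 on the scrambled arrays and 5.51, 5.05 and 5.78 on the Myb shRNA arrays) to 0.88 ± 0.25 (SE), adjusted p = 0.0277. In the other direction, Rnase4, a secreted ribonuclease, was higher at day 3 (0.86 ± 0.26, SE) and lower at day 9 (-1.28 ± 0.26). That day 3 call was lost with 4 of the 6 day 3 arrays left out one at a time, and stood at an adjusted p of 0.0871 without both arrays numbered 3. Clca3b, Dkk3 (a Wnt modulator) and Lbh gave -0.57, 0.24 and 0.14 at day 3 without passing and were lower by 3.36 ± 0.30, 2.08 ± 0.30 and 2.12 ± 0.27 (SE) at day 9. With the block the day 3 difference of Clca3b passed (adjusted p = 0.0242). Muc16 was at least 4.00-fold higher at day 3 and gave -0.01 ± 0.33 (SE) at day 9, and its change was lost without day 3 scrambled replicate 2 or Myb shRNA replicate 1. The change of Dkk3 was lost without Myb shRNA replicate 1. Pcbd1, at least 1.58-fold higher at day 3 (adjusted p = 0.000745; means 4.78 ± 0.14 to 6.24 ± 0.03), gave -0.63 ± 0.24 at day 9 without passing.

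Among genes that rose at day 3, the day 9 values went different ways. Cdkn2a was called higher at day 9 as well, at 5.27 ± 0.25 with scrambled and 6.49 ± 0.36 with Myb shRNA, where no scrambled array was above background. The change between days passed (adjusted p = 0.0302), and the call was lost without day 3 scrambled replicate 2 or Myb shRNA replicate 1 or 2. Ager was higher at day 9 by 4.47 ± 0.35 (SE), and the change of 2.06 ± 0.49 (SE), adjusted p = 0.0599 did not pass. Of the 22 hemidesmosome, laminin and integrin genes 8 were higher at day 9 (median 0.45), all 8 of them higher at day 3 too, and the change passed for 1, Nid1, which no day 9 array detected. Of the 22 alveolar type 1 genes 16 were higher at day 9 (median 1.14), with 0 changes past the threshold. Detoxifying enzymes gave 5 higher and 7 lower of 43 at day 9 (median -0.01, against -0.48 at day 3), with 3 changes past the threshold. The actin list gave 4 higher and 3 lower of 37 at day 9 (median 0.24, against 0.59), and p53 targets 8 higher and 0 lower of 29 (median 0.35, against 0.43). Hey1 and Scgb3a1 were lower on both days, with day 9 differences of -1.81 ± 0.22 and -1.75 ± 0.27 (SE).

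**Figure D5:**
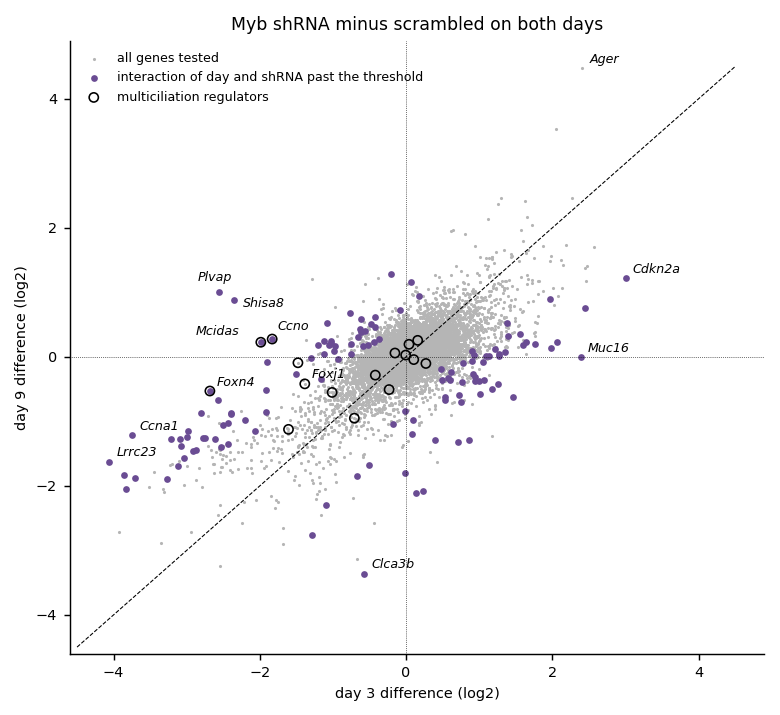
Difference between Myb shRNA and scrambled at day 3 (x axis, log2) against day 9 (y axis, log2) for the 8782 genes; purple points are the 125 genes whose difference changed between days, open circles the 16 measured multiciliation regulators, and the dashed line marks equal differences. Mcidas and Ccno lie near 0 at day 9, at 0.23 and 0.28, while Lrrc23 stays at -1.62.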

How the data were processed

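Total RNA of 12 samples (3 per group) was labelled as biotinylated aRNA and measured on Illumina bead arrays. The deposited non-normalized table holds a summed probe intensity and a detection p-value per array, per the file headers, and the submitters' processing notes name BeadStudio 3.0 and limma. A second deposited table holds the authors' log2 values and was used as an alternative. From the intensities, limma 3.58.1 (R 4.3.3) corrected background with neqc (offset 16, using detection p-values in place of control probes) and quantile normalised all 12 arrays. Probes detected (p under 0.01) on at least 3 of the 6 day 3 arrays were kept, 14184 of 45281. Of these 12747 were named through RefSeq and the platform annotation and 1437 were not, and the probe with the highest mean over the day 3 arrays stood for each of 8782 genes. One model with 4 group means (8 residual degrees of freedom) gave the day 3 and day 9 differences and their change between days, with trended empirical Bayes variances and Benjamini-Hochberg adjustment. The procedure was tested on simulated data.

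The "at least" folds set the mean of the brighter group against the mean, per array, of the lowest level among detected probes (5.37 to 5.69 over the day 3 arrays), or of the dim probe where that was higher. Replicates of 1 group may be technical as well as biological, and p-values then measure only the spread between these samples. The number of arrays limits the precision.

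Replicate numbers are shared between groups. Deviations of same-numbered day 3 arrays from their group means correlated at 0.172, 0.288 and 0.542. For the block the numbers were read as pairs from these data, not from the labels. Scrambled 1 with Myb shRNA 2 gave 0.501 and scrambled 2 with Myb shRNA 1 gave 0.260, so numbers 1 and 2 are not shown to be pairs.

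The members and the 49 gene lists were chosen with earlier results of these data known. Named genes are Myb, Mybl1 and Mybl2, the 15 largest rises and falls past the threshold with groups that do not overlap, every measured multiciliation regulator, up to 4 genes of each other list by smallest p, and the 6 largest changes between days each way. Genes known only by a clone name or number were left out of the 15 largest rises and falls and of the 6 largest changes. Other genes named were chosen after their values were seen. Alternatives varied the detection filter, arrays fitted, normalisation, background, variance model, probe choice, replicate block and arrays left out.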

Additional observations from a re-analysis of the deposited data

Results flagged for a closer look

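For 35 genes named by the rule, the difference between Myb shRNA and scrambled changed between day 3 and day 9 past the threshold of the interaction test (limma, adjusted over 8782 genes). Values are the day 9 difference minus the day 3 difference on the log2 scale. The change was positive for the regulators Foxn4 (2.15), Mcidas (2.21) and Ccno (2.11), for the centriole and tubulin genes Mdm1 (1.40) and Tube1 (1.61), and for Tmem107 of the transition zone (1.45). It was positive for the axoneme genes Lrrc23 (2.43), Morn5 (2.02), Tekt1 (1.78), Rsph9 (1.13), Dnali1 (1.75) and Dynlrb2 (1.69), and for the assembly factor Zmynd10 (1.94). Riiad1 (1.43), 1110017D15Rik (1.37) and Tppp3 (1.33), listed as genes of ciliated cells, also had positive changes. So had the cell cycle genes Ccna1 (2.53) and Cdk1 (1.28), and Plvap (3.56), Shisa8 (3.24) and Adm (1.24). The change was negative for Clca3b (-2.79), Muc16 (-2.40), Dkk3 (-2.32), Lbh (-2.26), Rnase4 (-2.15) and Pcbd1 (-2.09). It was also negative for Nid1 (-1.85), Nrp1 (-1.84), Cdkn2a (-1.78), Spon2 (-1.69), Serpine2 (-1.25), Tubb2b (-1.12), Sox4 (-1.06) and Bmp1 (-0.90). With day 3 Myb shRNA replicate 1 left out 19 of the 35 passed, and with any other single day 3 array left out 30 to 35 passed. The changes of Bmp1 and Sox4 were lost with 5 and 4 of the 6 day 3 arrays left out one at a time. Day 9 arrays were not left out. For Ccna1, Adm, Muc16, Pcbd1 and Nid1 no day 3 array of 1 group was above background, and for Adm, Pcbd1, Nid1, Cdkn2a, Nrp1 and Spon2 no day 9 array of at least 1 group was, so the sizes of these changes are uncertain.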

How the results depend on the processing

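Main counts were 1085 genes higher, 1026 lower and 125 changes between days. With the replicate number as a block the counts were 1607 higher and 1364 lower. With that block over all 12 arrays 627 changes between days passed. Across days, same-numbered arrays correlated at 0.132 to 0.493 for the other 3 pairs of groups, but at 0.0311, 0.0615 and 0.356 for day 3 Myb shRNA with day 9 scrambled, so the numbers were not read as pairs over all 12 arrays. With array weights the counts were 3314, 3084 and 3313. At day 3 the weights were 21.4 for Myb shRNA replicate 1 and 6.35 for scrambled replicate 2, and 0.143 to 0.643 for the other arrays. The day 3 differences of that fit thus rest mostly on 1 array of each group. Without both day 3 arrays numbered 3, an alternative chosen after seeing the data, they were 1149, 1053 and 265. Leaving out 1 day 3 array at a time gave 676 to 1594 higher, 720 to 1416 lower and 48 to 263 changes. The other alternatives kept every count within 1.5 times. Of 208 named genes, 184 to 208 kept their direction and call under each alternative that tested all of them. Values of the other sign were Cxcl15 (-0.0425), Rpl37 (-0.0724), Rps29 (-0.0562) and Tfdp2 (0.0105) with median centring, which set the median of all genes at -0.0273. With array weights they were Cxcl15 (-0.0107), Foxa2 (-0.244) and Tfdp2 (0.199), and with the mean of probes Actb (-0.400) and Tfdp2 (0.0281). Over the fits with 1 day 3 array left out, Foxa1 ran from -0.178 to 0.529, Foxa2 from -0.119 to 0.211, Cxcl15 from -0.208 to 0.170, Tfdp2 from -0.201 to 0.186 and Lbh from -0.0174 to 0.264. Without both arrays numbered 3, Cxcl15 (-0.139) and Foxa2 (-0.0468) had the other sign. Of these values of the other sign, Foxa2 and Tfdp2 with array weights passed the threshold (adjusted p = 0.0322 and 0.0181), and Actb with the mean of probes did not (adjusted p = 0.0790). The cause was not tested. Myb, Gmnc and other genes below detection could not be tested.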
